A study of Arabidopsis thaliana with 6 samples.

Results

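The 35 genes described here encode the proteins that mark replication origins, load and start the replicative helicase, and copy and repackage DNA at the fork in Arabidopsis thaliana. They were chosen by locus from among the known subunits of these complexes and do not cover every subunit. No measured value entered the rule, but earlier results of these data were known when the genes were chosen. They make up 35 of the 25388 loci with a probe on the array. By role they comprise 6 origin recognition genes, 3 helicase loading genes, 6 helicase genes, 6 genes of helicase activation, 6 of polymerases, clamp and clamp loader, 2 of fragment processing, 2 of replication protein A, 3 of the histone chaperone CAF-1, and ETG1. Transcripts of whole seedlings 14 days old were measured on 6 single-colour arrays, 1 for each combination of 3 lines and 2 treatments. The lines were the Columbia-0 wild type (WT) and ago2a and ago2c, a pair of mutant lines of ARGONAUTE2 (AGO2), which encodes a small RNA binding protein. The labels do not say what kind of mutation each line carries. Irradiated seedlings received 200 Gy of gamma rays from cobalt, at 50 Gy per hour over 4 hours, and were examined 24 hours later, and the controls were mock treated. RNA of each condition was pooled from 3 batches of seedlings before hybridisation, so no condition had a replicate array. In the tests the lines stood in for replicates, except that the test between genotypes took the arrays of a line as separate.

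As background, a eukaryotic origin is licensed when the origin recognition complex, with CDC6 and CDT1, loads the MCM2 to MCM7 ring onto DNA in G1. In S phase CDC45 and the GINS complex join the ring to form the active helicase, and polymerases, the PCNA clamp, its loader RFC, the nuclease FEN1 and the ligase LIG1 then copy and join the strands. In plants many of these genes are transcribed under E2F factors, which the retinoblastoma protein RBR holds in check. Chromatin is rebuilt behind the fork by CAF-1. Gamma rays break DNA, and plant cells respond through the regulator SOG1, which among other effects represses progress into mitosis.

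All 35 genes were well above background on all 6 arrays, and no probe was saturated. Across arrays between 70.5% and 73.4% of probes were well above background, and 20171 loci entered the tests. AGO2 had a scaled signal of 210 in WT mock and 439 in WT irradiated seedlings, was not well above background on the 4 mutant arrays, and was at least 11.5-fold higher in WT, although this did not pass the limma test (adjusted p = 0.64). A scaled signal is the background-corrected intensity after each array was brought to the same 75th percentile, and it compares arrays for 1 probe but not genes with each other. Where a pair of signals is given for a line, the mock array comes first. The WT and ago2a arrays shared a slide and both ago2c arrays lay on another. Earlier results of these data had also parted the arrays by how the probes of a locus compared, into WT mock, WT irradiated and ago2a mock on one side and the other 3 arrays on the other. The treatments of WT, like those of ago2c, were thus measured within 1 array group, whereas those of ago2a were split over both. The number of arrays limited the precision throughout.

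The first comparison asked how replication transcripts responded to irradiation. Their signal was modestly higher in irradiated than in mock seedlings of every line, from origin recognition to chromatin assembly, but no single gene passed the test over all loci. The median response, the log2 irradiated minus mock difference averaged over the 3 lines, was 0.50 (1.42-fold), beside 0.01 over all loci. By line WT had a median of 0.41, ago2a of 0.54 and ago2c of 0.58, beside -0.01, 0.06 and 0.01 over all loci. The mean response was above 0 for 34 of 35 genes, against 53.1% of loci, and CDT1B, with -0.04, was the exception (46.9% of loci were below 0). A change in the number of cells of a type and a change in RNA per cell cannot be told apart in RNA of whole seedlings.

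In the limma fit with line as a block, 0 of 35 genes were higher and 0 lower once p-values were adjusted over all loci (Benjamini-Hochberg, threshold 0.05), against 0.223% of all loci higher and 0.0149% lower. At an unadjusted p under 0.05 the counts were 27 higher and 0 lower, against 5.68% and 8.21% of all loci. The unadjusted count was lower with any line left out. It was 12 of 35 without ago2c (2.32% of loci), 20 without ago2a (4.45%) and 25 without WT (5.79%). Calls over all loci also fell without ago2c or ago2a, so the drop does not show what the count owes to either line. With the array group as a block, which takes no information on irradiation from ago2a, the count was 20 (4.45% of loci).

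By sign alone, 31 of 35 genes were higher in each of the 3 lines, against 21.4% of all loci, and 0 were lower in each, against 18%. For 22 of 35 the 3 irradiated arrays all lay above the 3 mock arrays, against 8.07% of loci, and for 0 all lay below (7.3%). At least 1.5-fold higher were 5 genes in the WT pair of arrays (3.65% of all loci), 15 in that of ago2a (6.25%) and 17 in that of ago2c (3.17%), and 0 were lower by as much in any line (3.96%, 13.9% and 9.47%). The 5 genes at least 1.5-fold higher in WT were POL2A, PCNA1, ORC3, ETG1 and MCM3, which were also the 5 at least 1.5-fold higher in all 3 lines (0.877% of loci; 1.02% were lower in all 3). These per-line counts have no test, since each line had 1 array per treatment.

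**Figure D1:**
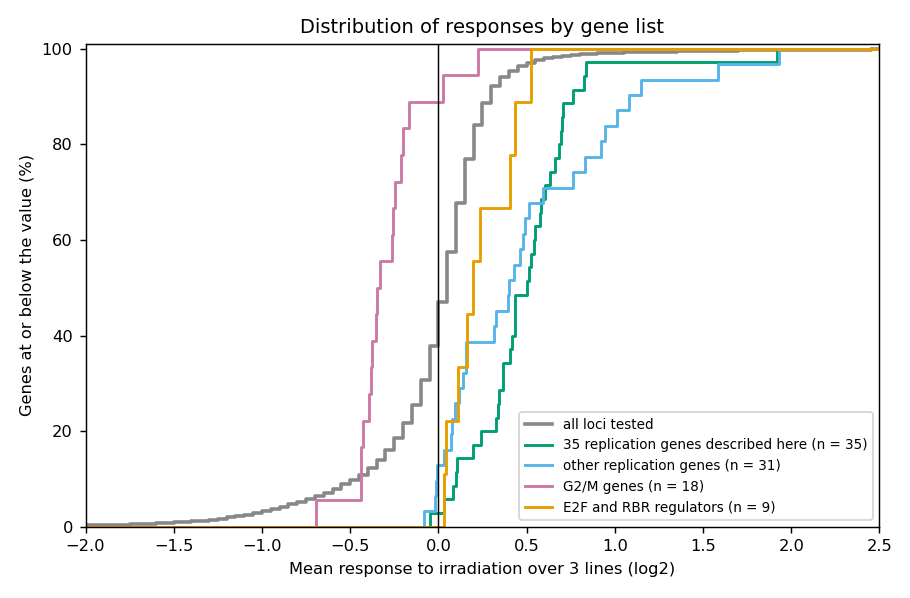
Cumulative distribution of the mean response to irradiation (x axis, log2, mean of 3 lines) as the percentage of genes at or below each value (y axis), for all loci tested, the 35 replication genes, and 3 other gene lists. The curve of the 35 genes lies to the right of all loci, with medians of 0.50 and 0.01, and that of the G2/M genes to the left, with a median of -0.34.

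The origin recognition complex, which binds origins and recruits the loading factors, had a median response of 0.59 over its 6 genes. ORC3 (AT5G16690) had scaled signals of 647 in mock and 1082 in irradiated WT, 600.2 and 1129 for ago2a, and 739 and 1312 for ago2c. Every irradiated array of ORC3 thus lay above every mock array. The mean response over 3 lines was 0.83 ± 0.09 (log2, moderated limma SE), with a limma adjusted p of 0.11. ORC4 (AT2G01120) had 631 and 946 for WT, 668 and 1288 for ago2a and 988 and 1475 for ago2c, so that the groups overlapped because ago2c mock lay above WT irradiated. ORC2 (AT2G37560) and ORC6 (AT1G26840) had mean responses of 0.61 and 0.58, with no overlap between treatments. For ORC6 the signal was 64.7 and 79.5 for WT, 62.0 and 92.2 for ago2a, and 71.9 and 131 for ago2c, and its response ran from 0.30 in WT to 0.87 in ago2c. Its mean response was 0.28 under another background correction (normexp).

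ORC1B (AT4G12620), 1 of a pair of genes for the largest subunit, and ORC5 (AT4G29910) did not follow this pattern in every line. ORC1B had signals of 63.4 and 94.3 for WT, 63.7 and 55.4 for ago2a and 36.6 and 57.1 for ago2c, with a response of -0.20 in ago2a and 0.57 and 0.64 in the other lines. Mock and irradiated arrays of ORC1B overlapped. Its mean response was 0.34, and 0.09 under normexp background correction. ORC5 was nearly level, at 628 and 629.9 for WT, 576 and 659 for ago2a and 657 and 713 for ago2c. Its mean response of 0.11 ± 0.09 (log2, moderated limma SE) did not pass the limma test (adjusted p = 0.62).

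The 3 helicase loading genes had a median response of 0.37. CDC6 (AT2G29680), the ATPase that works with the origin complex, had a mean response of 0.41, and CDT1A (AT2G31270), which brings the MCM ring, of 0.37. Both were higher in all 3 lines, with their smallest response in WT (0.25 and 0.13), and for both the treatments overlapped. CDT1B (AT3G54710), the paralog of CDT1A, behaved otherwise. The WT arrays gave 186 and 150.1, those of ago2a 158 and 189 and those of ago2c 245 and 232. Its response was therefore below 0 in WT (-0.31) and ago2c (-0.08) and above 0 in ago2a (0.26), and the sign of its mean also turned under 4 alternative settings (range -0.20 to 0.09).

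The MCM2 to MCM7 genes, which encode the 6 subunits of the helicase ring, were higher after irradiation in all 3 lines by their brightest probe, with mean responses between 0.44 and 0.71. The second probes of MCM4 and MCM7 had values below 0 in ago2a (-0.07 and -0.80). MCM3 (AT5G46280) had the highest. Its signals were 683 and 1030.2 for WT, 667 and 1076 for ago2a and 739 and 1316 for ago2c, a mean of 1.63-fold. The mean response was 0.71 ± 0.10 (log2, moderated limma SE), with an adjusted p by limma of 0.14. MCM5 (AT2G07690) followed with 0.69, MCM6 (AT5G44635) with 0.54, MCM2 (AT1G44900) with 0.51, and MCM4 (AT2G16440) and MCM7 (AT4G02060) with 0.44 each. For MCM2, MCM3, MCM5 and MCM6 the 3 irradiated arrays lay above all mock arrays, whereas for MCM4 and MCM7 the ago2c mock array lay above WT irradiated. Over the 6 subunits WT had a median response of 0.34, ago2a of 0.63 and ago2c of 0.67.

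MCM6 had signals of 543 and 644 for WT, 407 and 645 for ago2a and 526.5 and 865 for ago2c. Its irradiated values in WT and ago2a were thus nearly equal, while ago2a mock was the lowest of the arrays. MCM2 had 1207 and 1638 for WT, 1121 and 1529 for ago2a and 1229 and 1934 for ago2c. MCM7 had 3297 and 3748 for WT, 2879 and 4352 for ago2a and 4109 and 5912 for ago2c, with the smallest response in WT, 0.18.

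The helicase activation genes were split. SLD5 (AT5G49010), a GINS subunit, had a mean response of 0.57, MCM10 (AT2G20980), which helps to activate the assembled helicase, of 0.50 and CDC45 (AT3G25100), the helicase cofactor, of 0.42, and the treatments of these 3 genes did not overlap. MCM10 was measured at 115 and 152 on the WT arrays, 107 and 137 on those of ago2a and 111 and 185 on those of ago2c. The remaining GINS genes were lower in this order, with PSF1 (AT1G80190) at 0.24, PSF3 (AT1G19080) at 0.08 and PSF2 (AT3G12530) at 0.03. PSF3 had signals of 1805 and 1659 for WT, 1476 and 1729 for ago2a and 1924 and 2128 for ago2c, and PSF2 had 310.1 and 337 for WT, 337 and 269 for ago2a and 207 and 255 for ago2c. In both genes 1 line had a response below 0, WT for PSF3 (-0.12) and ago2a for PSF2 by its brighter probe (-0.33). The second probe of PSF2, also well above background on all 6 arrays, had the opposite sign in each line. It responded by -0.04 (WT), 0.07 (ago2a) and -0.13 (ago2c). The limma adjusted p was 0.74 for PSF3 and 0.94 for PSF2. PSF3 has a second gene copy, PSF3-2 (AT3G55490), with a response of 0.16, and whether the probes separate the copies was not analysed here.

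**Figure D2:**
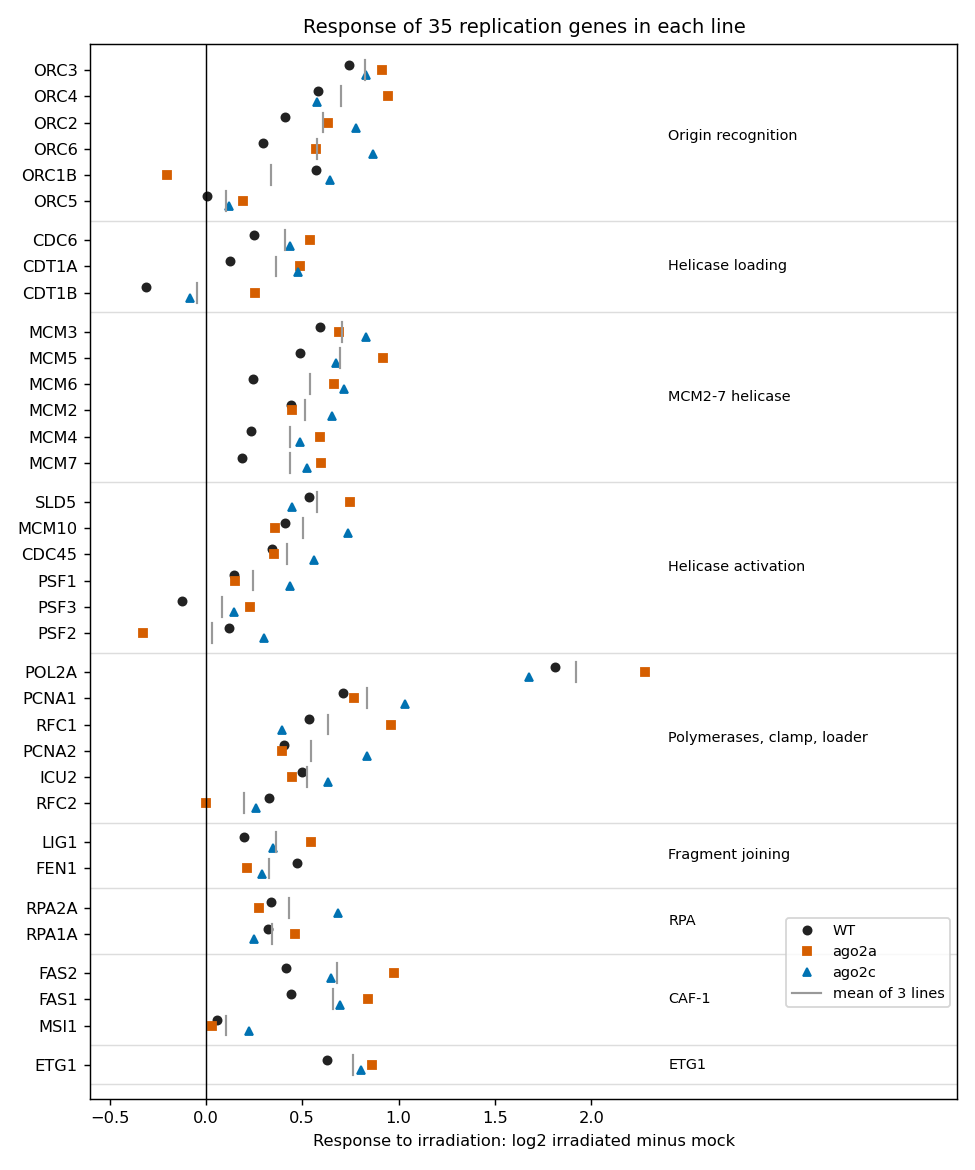
Response to irradiation (x axis, log2 irradiated minus mock, 1 array each) of the 35 genes in WT (circles), ago2a (squares) and ago2c (triangles), grouped by role, with grey bars at the mean of the 3 lines. POL2A lies apart at 1.68 to 2.28, most genes lie between 0.2 and 1, and CDT1B, PSF2, PSF3 and ORC1B have at least 1 line below 0.

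Among the genes of synthesis, POL2A (AT1G08260), the catalytic subunit of the leading strand polymerase epsilon, had the highest response of the 35. Its signal was 533 in mock and 1867 in irradiated WT, 449 and 2178 for ago2a, and 671 and 2149 for ago2c. The lowest irradiated array stood well above the highest mock array, and the fold was 3.50 for WT, 4.85 for ago2a and 3.20 for ago2c. Its mean response was 1.92 ± 0.15 (log2, moderated limma SE), with a limma adjusted p of 0.058, just above the threshold. It ranked 58 of 20171 loci by size. Over the 14 alternative settings its response stayed between 1.74 and 2.04 and its adjusted p between 0.014 and 0.25, and it passed the threshold under 7 of them. Most of those 7 also called more of all loci, as given below.

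The sliding clamp genes PCNA1 (AT1G07370) and PCNA2 (AT2G29570) had mean responses of 0.84 and 0.55. PCNA1 had signals of 702 and 1148 for WT, 633 and 1077 for ago2a and 686 and 1404 for ago2c. Its mean was 1.79-fold (response 0.84 ± 0.11, log2, moderated limma SE), with an adjusted p by limma of 0.13. PCNA2 had 2736 and 3629 for WT, 2317 and 3049 for ago2a and 2055 and 3666 for ago2c. Neither clamp gene overlapped between treatments, and whether the probes separate these closely similar copies was not analysed here. ICU2 (AT5G67100), the catalytic subunit of polymerase alpha that starts each strand, had like responses across lines, of 0.50 (WT), 0.45 (ago2a) and 0.63 (ago2c). Of the clamp loader, RFC1 (AT5G22010), the large subunit, had a mean of 0.63. RFC2 (AT1G63160), a small subunit, had 848 and 1063 for WT, 890.0 and 891 for ago2a and 815 and 975 for ago2c, and so a response near 0 in ago2a (0.002) but of 0.33 in WT and 0.26 in ago2c.

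FEN1 (AT5G26680) encodes the nuclease that trims the flaps of lagging strand fragments, and LIG1 (AT1G08130) the ligase that seals them. By their brighter probes they had mean responses of 0.33 and 0.37, and their treatments did not overlap. FEN1 was measured at 233 and 323 for WT, 268 and 310.4 for ago2a and 270.0 and 331 for ago2c. Its second probe, also well above background on all 6 arrays, gave 181 and 225 for WT, 215 and 144 for ago2a and 130.1 and 153 for ago2c. By that probe the mean response was -0.006 and the treatments overlapped. The replication protein A genes RPA1A (AT2G06510) and RPA2A (AT2G24490), whose products coat single-stranded DNA, had mean responses of 0.34 and 0.43, without overlap. In CAF-1, which deposits histones behind the fork, the subunits parted. FAS1 (AT1G65470) and FAS2 (AT5G64630) had mean responses of 0.66 and 0.68, and MSI1 (AT5G58230), which also belongs to Polycomb complexes, had 0.10. MSI1 had 5642 and 5861 for WT, 5347 and 5458 for ago2a and 4658 and 5434 for ago2c, with overlap between the treatments and a limma adjusted p of 0.64.

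ETG1 (AT2G40550) encodes an MCM-binding replisome factor that is a known E2F target and is needed for sister chromatid cohesion. It had signals of 1594 and 2465 for WT, 1541 and 2802 for ago2a and 1997 and 3486 for ago2c. All irradiated arrays were above all mock arrays. The mean was 1.70-fold (response 0.77 ± 0.10, log2, moderated limma SE), with an adjusted p by limma of 0.13.

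**Figure D3:**
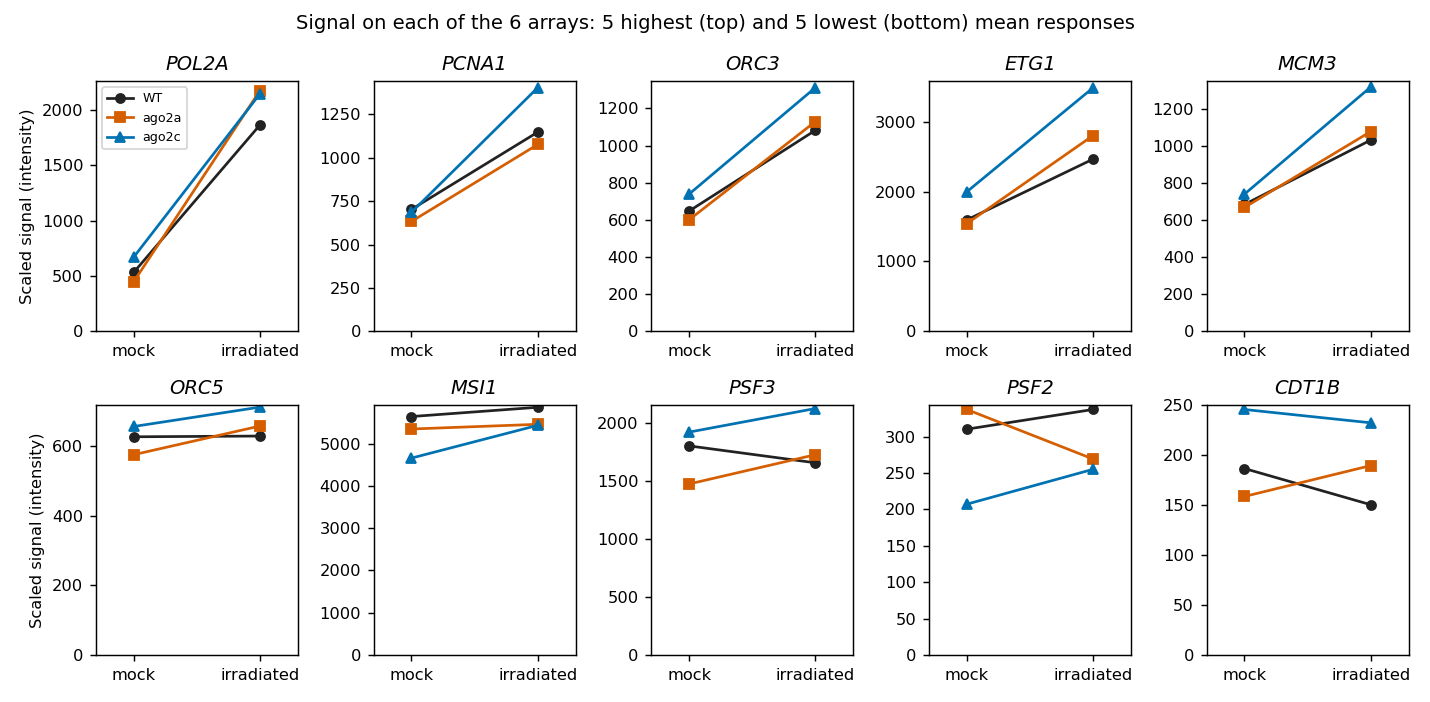
Scaled signal (y axis, intensity from 0) on the mock and irradiated array of each line for the 5 genes with the highest mean response (top) and the 5 with the lowest (bottom). Lines join the arrays of WT, ago2a and ago2c; in the top row all 3 lines climb, from POL2A with 449 to 671 in mock and 1867 to 2178 in irradiated seedlings, and in the bottom row the lines are level or cross.

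For 10 of the 35 genes a pair of probes could be compared, and the values above are those of the brighter one. In WT both probes told much the same, with a median response of 0.42 by the brighter and 0.47 by the second, and 9 of 10 second probes above 0. In ago2a the medians were 0.57 and -0.002, and 5 of 10 second probes were below 0. In ago2c they were 0.51 and 0.38, with 3 of 10 second probes below 0. A gap of over 1 (log2) between the probes was found for 0 genes in WT, for MCM2, MCM7 and ORC4 in ago2a, and for ORC3 and MCM10 in ago2c.

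The second probe of ORC4, well above background on 2 arrays only, responded by 0.88 (WT), -0.81 (ago2a) and 0.83 (ago2c). That of MCM7, well above background on all 6, responded by 0.40, -0.80 and 0.62, and its signal in ago2a was 251 in mock and 145 in irradiated seedlings. The ago2a arrays of MCM7 therefore give opposite directions by the probe chosen, while WT and ago2c do not. For MCM2 the second probe, well above background on 4 arrays, responded by 1.18, 1.55 and 0.36 in the same order of lines. That of ORC3 had 0.89, -0.02 and -0.47, and that of MCM10 had 0.55, 0.02 and -0.26. FEN1 and PSF2 were the genes whose probes differed in the sign of the mean response. With the mean of all probes of a locus in place of the brightest, the median response of the 35 genes was 0.43, with 25 higher at an unadjusted p under 0.05 (5% of loci), and ORC3 had 0.48 in place of 0.83. The ago2a arrays lay on both sides of the array groups named above, and the part of that in the gaps was not tested.

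**Figure D4:**
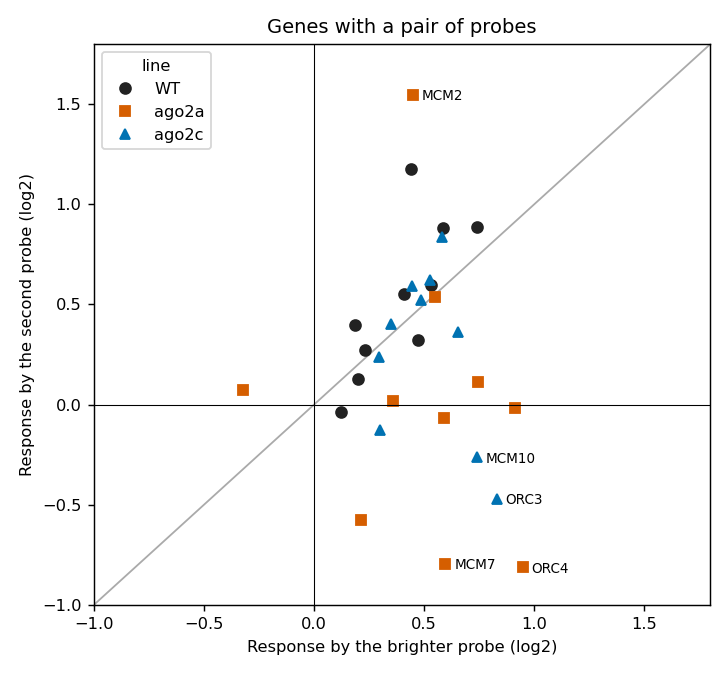
Response to irradiation by the second probe (y axis, log2) against that by the brighter probe (x axis, log2) for the 10 genes with a pair of probes, in WT (circles), ago2a (squares) and ago2c (triangles), with the line of equal response. WT points lie within 0.74 of the line, 5 of 10 ago2a points lie below 0 on the y axis, and gaps over 1 are labelled with the gene.

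A list of further genes of DNA replication spanned a similar range of responses, from -0.08 to 1.93, the latter from POL2B, dim on every mock array. This list of 35 genes, of which 31 were tested, held 1 gene that passed the limma test as higher and 0 as lower (0.223% and 0.0149% of all loci), and 18 that were higher and 0 lower at an unadjusted p under 0.05 (5.68% and 8.21%). Its median response was 0.40. The gene past the threshold was POL2B (AT2G27120), the paralog of POL2A. It was dim on every mock array, with scaled signals of 17.6, 24.3 and 25.1 (WT, ago2a, ago2c), and above background on every irradiated array, with 76.9, 80.2 and 96.4. It was at least 3.10-fold higher in irradiated seedlings, a bound set by the lowest signal well above background (limma adjusted p = 0.035). POL2B entered the test only through its 3 irradiated arrays, so its place among the genes tested rests on the group where it is high, and its call supports nothing about the list. With no filter on dim probes the adjusted p was 0.12, and the call was also lost under 5 other alternatives, among them leaving out ago2a (adjusted p = 0.25) or ago2c (adjusted p = 0.098). Whether the probes of POL2A and POL2B see only their own transcript was not analysed here. RPA1E (AT4G19130), a large subunit of replication protein A from another branch than RPA1A, had a response of 1.58, and POLD4 (AT1G09815), a small subunit of polymerase delta, of 1.15. At the low end RPA3B (AT4G18590) had -0.08, the histone chaperone gene ASF1B (AT5G38110) -0.02 and the topoisomerase gene TOP2 (AT3G23890) -0.01, and under some scalings these 3 were at or above 0.

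The regulators upstream of replication and the genes of mitosis were also read. Of 9 E2F and RBR regulators 0 passed the test, 3 were higher and 0 lower at an unadjusted p under 0.05 (5.68% and 8.21% of all loci), and the median response was 0.20. RBR1 (AT3G12280), the retinoblastoma gene, had 0.53, the repressor gene E2FC (AT1G47870) 0.44 and DEL1 (AT3G48160), an atypical E2F, 0.41, while DEL2 (AT5G14960) had 0.03, the activator gene E2FB (AT5G22220) 0.04 and DPB (AT5G03415), a dimerisation partner, 0.11. Of 18 G2/M genes 0 passed, 0 were higher and 8 lower at an unadjusted p under 0.05 (5.68% and 8.21% of all loci), and 12 were lower in all 3 lines (18%). Their median was -0.34, and by line -0.49 (WT), -0.27 (ago2a) and -0.14 (ago2c). The B-type cyclin gene CYCB1;2 (AT5G06150) had -0.69, the cytokinesis syntaxin gene KNOLLE (AT1G08560) -0.44 and the spindle gene TPX2 (AT1G03780) -0.44. At the other end CDKB1;1 (AT3G54180), a plant-specific cyclin-dependent kinase, had 0.23, its sister CDKB1;2 (AT2G38620) 0.03 and CDC20.1 (AT4G33270), an activator of the anaphase-promoting complex, -0.17.

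The root markers summed to a lower signal in irradiated than in mock seedlings, by more in both mutant lines than in WT, and 0 of 11 passed the limma test. The summed scaled signal of 11 root markers was 6538 in mock and 6286 in irradiated WT, 7046 and 3550.1 for ago2a and 5302 and 2752 for ago2c. CASP1 alone held 2975 of the sum in WT mock and 3195 in ago2a mock. Not every marker fell in the mutant lines. NRT2:1 responded by -1.41 (WT), 0.96 (ago2a) and 1.65 (ago2c). In the same order SCR had -0.15, 0.42 and -0.03, and WOX5 had -0.03, 0.54 and 0.02. The median response of the 11 root markers was -0.11 for WT, -1.57 for ago2a and -1.75 for ago2c. Its part in the values of the replication genes was not tested. The ago2a median is the value of PLT1, which lay between COBL9 (-1.42) and WER (-1.64). PLT1 entered the test only through its 3 mock arrays and was dim on every irradiated array, so the size of its fall was not measured. WOX5 entered only through its 3 irradiated arrays. The 6 shoot meristem markers tested had a median response of -0.02, and the 10 leaf photosynthesis markers of 0.16. All 10 leaf markers were well above background on every array and between 9 and 10 of the 11 root markers, with PLT1, WOX5, NRT2:1 and RSL4 dim on 1 to 3 arrays.

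The second comparison set the mutant lines against WT. No replication gene passed the test between genotypes (limma, irradiation as a term, adjusted p under 0.05), with 0 higher and 0 lower against 0% and 0.00496% of all loci. At an unadjusted p under 0.05 the counts were also 0 and 0, against 1.48% and 2.42%, and the smallest adjusted p was 0.64. The median ago2 minus WT difference was 0.10 (log2), with 23 genes above 0 (55.3% of loci) and 12 below (44.7%). This direction was not stable. In mock seedlings the median difference from WT was -0.11 for ago2a and 0.14 for ago2c, and in irradiated seedlings it was 0.06 and 0.29. The median turned to -0.03 with slide as a block or without ago2c, and to -0.11 with the array group as a block.

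The highest differences were those of FAS2, ORC4 and CDT1B. FAS2 had scaled signals of 214 and 286 for WT, 209 and 412 for ago2a and 313 and 491 for ago2c, so that ago2a mock lay just below both WT arrays and the other mutant arrays above them (difference 0.46 ± 0.22, log2, SE, 4 ago2 against 2 WT arrays). ORC4 had a difference of 0.45 by its brighter probe and -0.06 by the mean of its probes, and CDT1B of 0.28. The lowest were ORC1B with -0.57, PSF2 with -0.30 by its brighter probe and PCNA2 with -0.22. The second probe of PSF2 gave signals of 181 and 177 for WT, 157 and 165 for ago2a and 216 and 198 for ago2c. ORC1B was low on 3 of the 4 mutant arrays and near WT in ago2a mock, the mutant array that shares the array group of WT, and with the array group as a block its difference was 0.02. Under normexp background correction it was 7.66e-05. MSI1 was the only gene whose 4 mutant arrays all lay below both WT arrays (5.69% of loci), with a difference of -0.14, and 0 genes lay above in this way (5.77%).

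**Figure D5:**
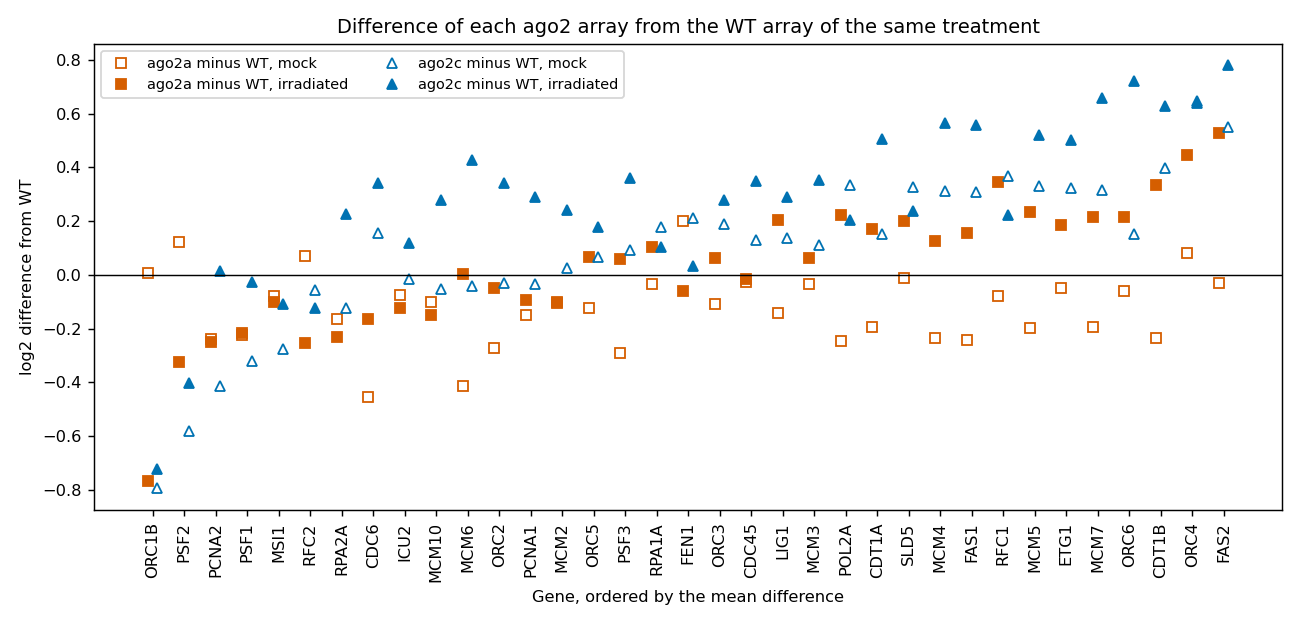
Difference of each ago2 array from the WT array of the same treatment (y axis, log2) for the 35 genes, ordered by the mean difference (x axis), with ago2a as squares and ago2c as triangles, open for mock and filled for irradiated seedlings. Most genes have points on both sides of 0, MSI1 and PSF1 have all 4 below it, ORC4 has all 4 above, and ago2c irradiated is often the highest.

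The third comparison, the one named in the title of the study, asked whether the response to irradiation differed between the mutant lines and WT. The interaction fit had 1 residual degree of freedom, and after adjustment it called 0 of 35 genes in either direction (0% of loci). At an unadjusted p under 0.05 it also called 0 higher and 0 lower, against 0.902% and 7.92% of loci, and the smallest adjusted p was 0.85. The mean response of the mutant lines exceeded that of WT for 31 of 35 genes, against 58.3% of loci, and was below it for 4 (41.7%), with a median difference of 0.17 (log2). With the mean of all probes of a locus the count was 25 of 35. Other lists had like or higher counts and medians, with 28 of 31 further replication genes above 0 (median 0.23), 16 of 18 G2/M genes (0.23) and 9 of 10 leaf photosynthesis markers (0.29). The E2F and RBR regulators had 6 of 9 (0.20), the shoot meristem markers 3 of 6 (-0.11) and the root markers 3 of 11 (-1.03). The WT response was smaller than both mutant responses for 21 genes (42.6% of loci) and larger than both for 2 (29.2%), which were FEN1 and RFC2. The size of this difference depended on the scaling. The median over all loci was 0.06, and it was 0.20 when arrays were scaled to their median, where that of the 35 genes was 0.31. The gap between them was 0.11 either way. This had to be so and is no check, since the scalings differ by the same amount for every locus of an array.

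The largest differences were those of MCM6, ORC6 and CDT1B, with 0.44 ± 0.23, 0.42 ± 0.26 and 0.40 ± 0.27 (log2, SE; limma adjusted p = 0.85, 0.90 and 0.91). Under normexp background correction they were smaller, at 0.30, 0.17 and 0.29. MCM6 responded by 0.25 in WT and by 0.66 and 0.72 in ago2a and ago2c. At the low end ORC1B had -0.35 ± 0.43, FEN1 -0.22 ± 0.23 and RFC2 -0.20 ± 0.25. The value of ORC1B rested on ago2a and was 0.07 without that line. For CDT1B the responses of the mutant lines did not share a sign.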

How the data were processed

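Per the labels' protocols, Cy3-labelled RNA was hybridised to Agilent arrays, 1 per condition. Per the file headers, the deposited spot intensities and their flags came from Feature Extraction 11.0.1.1. The authors' deposited value table is a linear ratio of unstated scale; its differences between arrays equalled those of median-scaled processed signals (largest gap 0.0027, log2), its column medians lay between 0.878 and 1.06, and it served as an alternative.

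Control spots and 53 probes with outlier flags were left out, and spots of a probe were averaged as log2 processed signal. Each array's 75th percentile was subtracted, and scaled signals were brought back to a common percentile of 1817. Of the remaining probes 34309 were matched to a locus by RefSeq accession and 9241 were not (gene table of assembly TAIR10.1; the headers name TAIR10, so no coordinates are printed). The brightest probe well above background on at least 2 of 6 arrays stood for a locus. Limma 3.58.1 in R 4.3.3 (lmFit, eBayes, Benjamini-Hochberg over 20171 loci, 0.05) gave 3 fits, with line as a block, with irradiation as a term, and with their interaction, leaving 2, 3 and 1 residual degrees of freedom. The fits were tested on simulated data. No condition had a second pooled sample. In the irradiation fit the p-values rest on the spread of the response between the 3 lines, in which genotype, array group and noise are mixed. In the interaction fit they rest on the difference in response between ago2a and ago2c. In the genotype fit they rest on what genotype and irradiation leave between arrays. Limma moderated these variances over all loci. Each SE given is this moderated one, not the plain SE of the lines or arrays.

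The members and lists were chosen with earlier results of these data known. All 35 genes are named. Signals on every array are given for the 5 highest and 5 lowest responses, the 3 highest and lowest of the other comparisons, and genes whose probes differed by over 1 (log2) in a line. Of other lists the 3 highest and lowest and those past the threshold are named. Of the 35 further replication genes 31 were tested, of 12 root markers 11 and of 8 shoot meristem markers 6. Alternatives were normexp on the median spot signal (offset 50), quantile normalization, scaling to the array median, the authors' values, other filters, the mean of probes, trended and robust eBayes, other blocks, leaving out lines, and other fold thresholds. Promoter and protein sequences were not used here.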

Additional observations from a re-analysis of the deposited data

Results flagged for a closer look

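PSF3, a GINS subunit gene, was singled out because its response had the opposite sign in WT and in both mutant lines. The values were -0.12 (WT), 0.23 (ago2a) and 0.15 (ago2c) on the log2 scale, and the mutant response exceeded that of WT by 0.31 (0.308). The limma test of this difference did not pass the threshold (adjusted p = 0.91). Groups of 4 or more samples, in which a sample that stands apart could be sought, did not exist within a condition.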

How the results depend on the processing

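The labels' replicate numbers pair nothing, since each condition had 1 array, and line was the block of the irradiation fit. With no replicate block the median response of the 35 genes was the same, 0.50, and 1 gene (POL2A) passed the threshold. POL2A alone passed under normexp, median scaling, the authors' values and the filter that asks for all 6 arrays (1 gene each). It passed with ORC3 under trended eBayes and without WT (2 genes each). Of all loci, 45 were higher past the threshold in the main fit, 60 under normexp, 71 under median scaling and 68 with the authors' values. There were 68 under trended eBayes, 84 with no replicate block and 141 without WT, but 13 without ago2c and 0 without ago2a. The settings that called POL2A or ORC3 thus mostly called more loci in general, so these counts are no result about those genes. The median response was 0.41 under normexp and ran from 0.40 (without ago2c) to 0.55 without each line in turn, with 0 to 2 genes past the threshold. At least 1.5-fold higher were 3 genes in WT and 9 in ago2c under normexp and 23 in ago2a under median scaling. At 2-fold they were 1, 1 and 2 in WT, ago2a and ago2c, and at the lower alternative threshold 21, 25 and 27, with 1 lower in ago2a. The shares of all loci are not given for these fold counts, so they cannot be read as a result about the 35 genes. The genotype median turned to -0.029 with slide as a block and without ago2c, was 0.23 without ago2a, where 8 genes were higher and 2 lower at an unadjusted p under 0.05 (15.5% and 11.9% of all loci), and -0.11 with the array group as a block. The median response difference was 0.306 under median scaling and the authors' values and 0.21 without either mutant line.

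Responses to irradiation that turned sign were those of genes near 0, and the cause was not tested. CDT1B had 0.07 under quantile normalization, 0.04 under median scaling (0.042) and the authors' values (0.043), and -0.20 to 0.088 without each line in turn. PSF2 had -0.018 under normexp and -0.10 to 0.21 without each line. ASF1B had 0.019 under quantile normalization, 0.070 under both median scaling and the authors' values, and -0.038 to 0.00308 without each line. TOP2 had 0.0075 under normexp, 0.073 under median scaling and the authors' values, and -0.13 to 0.15 without each line. RPA3B had 0.0056 under median scaling and 0.00599 with the authors' values. DEL2, E2FB and DPB had -0.039, -0.035 and -0.015 both without ago2a and in the fit that blocks the array group, and at most 0.089, 0.13 and 0.18 without another line. CDKB1;2 ran from -0.055 to 0.10 without each line.

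Of the genotype differences, ORC1B had 7.66e-05 under normexp and 0.021 with the array group as a block, where PSF2 had 0.18, CDT1B -0.21 and FAS2 -0.00230. ORC4 had -0.060 with the mean of probes. The response difference of ORC1B was 0.072 without ago2a and -0.77 without ago2c. The motif counts in promoters were not run, for want of sequence.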
